A study of Mus musculus with 2 samples.

Results

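Macrophages that carried transcripts of the chemokines Cxcl13 or Ccl8 were examined in the choroid plexus, the secretory tissue of the brain ventricles, of young and aged mice. Members were found by transcript counts, where a UMI (unique molecular identifier) stands for 1 captured transcript copy. A barcode was kept with at least 500 genes, at most 25% mitochondrial UMIs and under 10% of UMIs from the epithelial gene Ttr, and was taken as a macrophage with at least 10 UMIs of C1qa, C1qb and C1qc together. A macrophage with at least 1 UMI of Cxcl13 or Ccl8 was a member. Of 19584 deposited barcodes, 413 were macrophages by this rule and 72 of those were members, 6 of 215 at 3 months and 66 of 198 at 24 months. Because C1q, Cxcl13 and Ccl8 chose the members, their levels are given as a description only.

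The mice were female C57BL/6 with no treatment or altered gene named in the labels, aged 3 or 24 months. The plexuses of the lateral ventricles and of the 4th ventricle from 4 mice of an age were pooled before digestion, and 1 droplet-based 10x Genomics library was made per age. Mice of a pool cannot be told apart, so a member could come from any number of the 4, and age and library cannot be told apart. No test was possible with 1 library per age, so no p-value is given. Ranges in brackets are 95% intervals that cover counting error only. The libraries held 111403078 UMIs at 3 months and 116777113 at 24 months, and macrophages had medians of 3102 and 2897.5 UMIs. The libraries shared 29 barcode sequences, none of them a member.

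As background, chemokines are small secreted proteins that guide leukocytes along concentration gradients. CXCL13 binds the receptor CXCR5 and is known for drawing B cells and follicular helper T cells into lymphoid follicles. CCL8 binds CC receptors, in the mouse mainly CCR8, and is known as a product of tissue-resident macrophages. Macrophages of the choroid plexus lie in the stroma, around its vessels, and as epiplexus cells on the ventricular face of the epithelium.

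The 2 genes that define these cells lie on different chromosomes, and the sequence at each start is shown because the transcripts co-occurred in some cells. Cxcl13 spans chr5:95956951-95961068 on the plus strand and Ccl8 spans chr11:82115185-82116799 on the plus strand (mm10, GENCODE vM21). The RefSeq promoter windows on GRCm38.p6, each of 300 bases from 250 before the RefSeq start to 50 after it, are chr5:95956689-95956988 for Cxcl13 and chr11:82114935-82115234 for Ccl8, both on the plus strand and printed 5′ to 3′. Capitals mark matches to the motifs searched.
Cxcl13 promoter: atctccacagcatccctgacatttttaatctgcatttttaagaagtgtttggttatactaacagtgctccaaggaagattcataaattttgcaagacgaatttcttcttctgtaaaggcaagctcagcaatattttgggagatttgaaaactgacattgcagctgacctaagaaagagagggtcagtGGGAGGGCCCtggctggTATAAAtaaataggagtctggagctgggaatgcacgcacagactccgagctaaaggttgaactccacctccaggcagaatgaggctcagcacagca
Ccl8 promoter: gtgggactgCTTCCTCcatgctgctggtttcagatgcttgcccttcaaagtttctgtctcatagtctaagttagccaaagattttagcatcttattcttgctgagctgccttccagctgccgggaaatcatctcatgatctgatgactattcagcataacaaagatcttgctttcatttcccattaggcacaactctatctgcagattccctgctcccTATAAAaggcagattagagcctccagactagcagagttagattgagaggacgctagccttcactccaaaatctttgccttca

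Both windows held TATAAA, the letters of a TATA box, at position -46 from the RefSeq start in Cxcl13 and -32 in Ccl8, as did 13.6% of 32851 promoters of the same length searched on both strands. The Cxcl13 window held GGGAGGGCCC, a match on both strands to GGG, any 5 bases and CC, a loose form of the NF-kappaB motif found in 50.8% of promoters, and the Ccl8 window held none. The Ccl8 window held CTTCCTC, the reverse complement of GAGGAAG, the letters of a PU.1 core found in 13.6% of promoters, and the Cxcl13 window held none. Neither window held GAAA, any 2 bases and GAAA, the letters of an interferon-stimulated response element core (3.44% of promoters), or TGANTCA, those of an AP-1 site (7.81%). No motif overlapped another within these windows. A match describes letters and does not show binding.

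Members were 2.79% (1.03 to 5.97) of macrophages at 3 months and 33.3% (26.8 to 40.4) at 24 months. After every macrophage was thinned to 2300 UMIs, with 35 and 47 shallower cells left out, the shares were 1.67% (0.345 to 4.79) and 31.8% (24.5 to 39.9). With Ttr held under 2% of UMIs they were 8.00% (2.99 to 16.6), 6 of 75 macrophages, and 29.9% (22.1 to 38.7), 38 of 127. These intervals say nothing of the spread between libraries, which 1 library per age cannot show. Cxcl13 had no UMI in the 215 macrophages at 3 months, where 3 cells of 215 would be 1.40% (a limit on cells with a UMI, not on cells that express the gene), and had one in 48 of 198 at 24 months, 24.2% (18.4 to 30.8). Ccl8 was found in 6 of 215 and 37 of 198 macrophages, 2.79% (1.03 to 5.97) and 18.7% (13.5 to 24.8). All 6 members at 3 months were members by Ccl8 alone.

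The amount per cell also differed between the libraries. The 6 members at 3 months held 8 Ccl8 UMIs in all, and the highest held 3. At 24 months the members held 540 Cxcl13 UMIs, and the 48 positive cells had a median of 4 UMIs (range 1 to 67). They held 315 Ccl8 UMIs, and the 37 positive cells had a median of 3 UMIs (range 1 to 39). A few cells carried most of both transcripts: the 10 highest cells held 69.4% of Cxcl13 UMIs and 73.7% of Ccl8 UMIs. With both genes counted together, 14 members at 24 months held 1 UMI, 19 held 2 to 4 and 33 held at least 5. No cell at 3 months reached 5. Few cells lay near the threshold on C1q, and the lowest member at 24 months held 14 C1q UMIs. Just inside it, at 10 to 12 C1q UMIs, none of 9 macrophages at 3 months and none of 7 at 24 months carried either chemokine, and just outside it, at 7 to 9 C1q UMIs, none of 12 and 1 of 11 barcodes did.

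**Figure D1:**
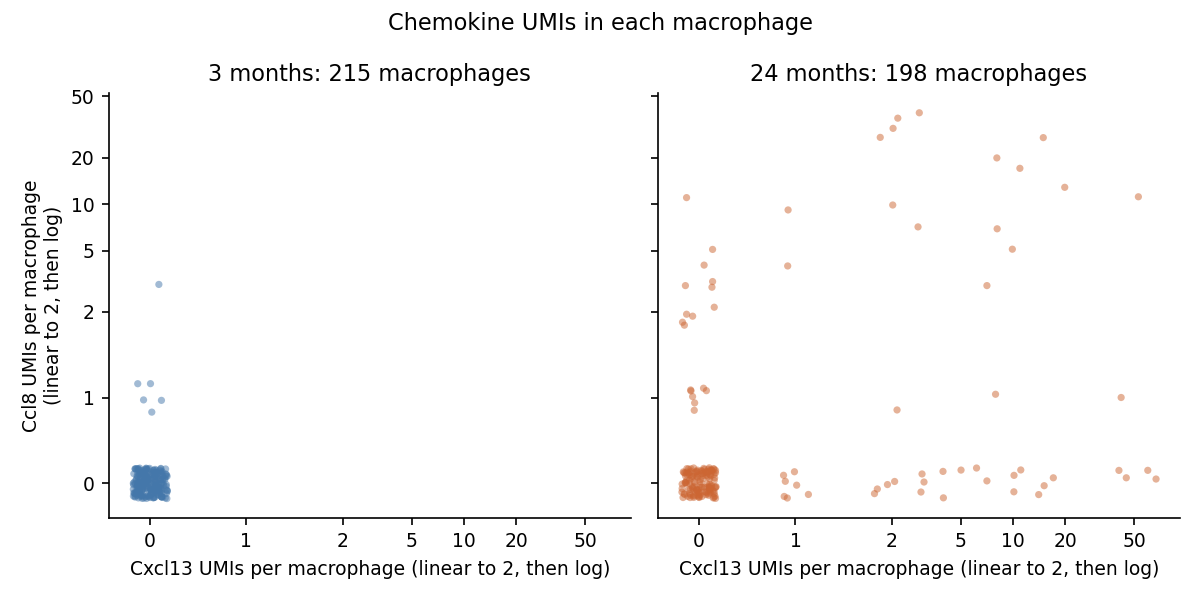
Cxcl13 UMIs (horizontal axis) and Ccl8 UMIs (vertical axis) in each macrophage of the 3 month and the 24 month library, on axes that are linear to 2 UMIs and logarithmic above, with points shifted at random by a small amount. All 6 positive macrophages at 3 months lie on the Ccl8 axis at 3 UMIs or fewer, whereas the 24 month library holds 29 cells with Cxcl13 alone, 18 with Ccl8 alone and 19 with both.

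The plot of chemokine UMIs in each macrophage shows that the transcripts overlapped in part at 24 months. Ccl8 was found in 19 of 48 cells with Cxcl13, 39.6% (25.8 to 54.7), and in 18 of 150 cells without it, 12% (7.27 to 18.3). The product of the 2 shares would give 8.97 cells with both. The 19 cells with both held 85.4% of all Ccl8 UMIs but 37.0% of all Cxcl13 UMIs. Their median was 7 Cxcl13 UMIs (range 1 to 53) and 10 Ccl8 UMIs (range 1 to 39), against a median of 2 Ccl8 UMIs (range 1 to 11) in the 18 cells with Ccl8 alone. High Ccl8 was therefore found mostly together with Cxcl13, whereas high Cxcl13 was found with and without Ccl8.

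In the other classes given here, Ccl8 was nearly absent and Cxcl13 was found at low level in mesenchymal barcodes, which hold the fibroblasts of the stroma. These classes were rebuilt from marker UMIs and may differ from those of the study. Cxcl13 had a UMI in 103 of 1154 mesenchymal barcodes at 3 months, 8.93% (7.34 to 10.7), and in 167 of 1623 at 24 months, 10.3% (8.85 to 11.9), at 31.9 and 49.2 CPM (UMIs per 1000000 of the group's total). After thinning to 2300 UMIs these shares were 5.59% and 8.13%. No mesenchymal barcode held more than 15 Cxcl13 UMIs. Ccl8 had a UMI in none of the mesenchymal barcodes at 3 months and in 3 of 1623 at 24 months. Endothelial barcodes are no known main source of either chemokine. Barcodes with any C1q UMI below the macrophage limit were set apart before these classes were formed, except the epithelial class. The endothelial class therefore held no C1q UMI and cannot gauge free RNA from macrophages. With median depths of 2463 and 2451.5 UMIs, endothelial barcodes held Cxcl13 in none of 833 and none of 666, and Ccl8 in none and in 1. Epithelial barcodes, at 15257 UMIs, held Cxcl13 in 26 of 6983 and Ccl8 in 11 of 6983 at 24 months, with thinned shares of 0.0579% for each.

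**Figure D2:**
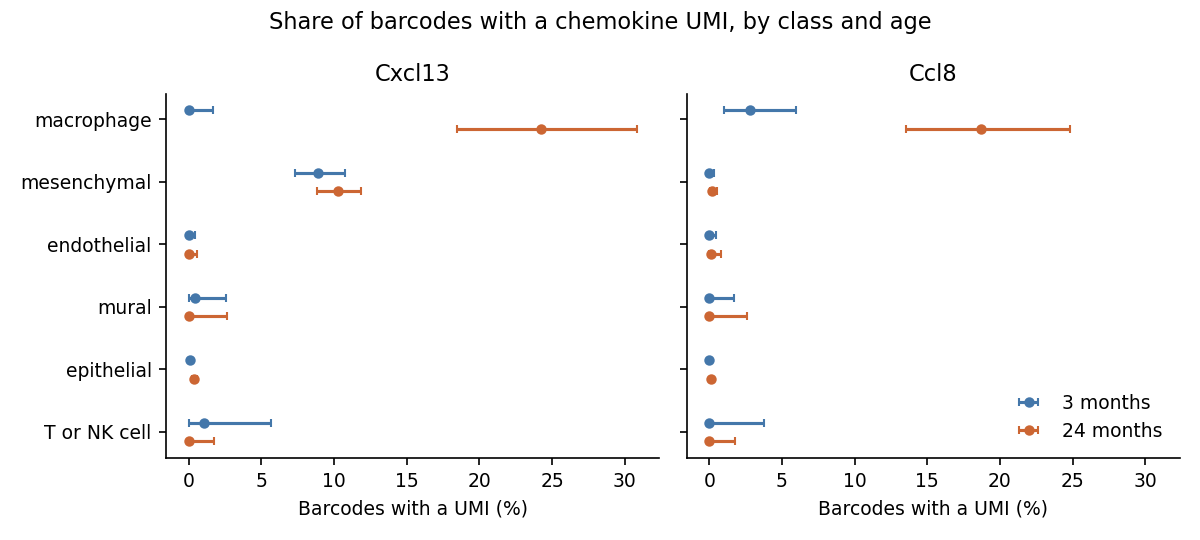
Share of barcodes with a UMI of Cxcl13 (left) or Ccl8 (right) in 6 classes at 3 months (blue) and 24 months (orange), with exact 95% binomial intervals for counting error. Macrophages at 24 months stand at 24.2% and 18.7%, and the mesenchymal class is the other class above 5%, for Cxcl13 only.

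Cxcr5 was found in B or plasma cell barcodes, Ccr8 in T or NK cell barcodes and in barcodes of no class, and neither in the macrophages themselves. At 24 months Cxcr5 had a UMI in 11 of 47 B or plasma cell barcodes, 23.4% (12.3 to 38.0), and in 5 of 6983 epithelial barcodes. At 3 months the B or plasma cell class held 2 barcodes, so no level can be given. Ccr8 had a UMI in 6 of 209 T or NK cell barcodes at 24 months, 2.87% (1.06 to 6.14), in 1 of 96 at 3 months, and in 12 of 129 and 5 of 102 barcodes that met no class rule. Neither receptor had a UMI in the 413 macrophages.

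The members carried the general markers of macrophages, at a summed level slightly above that of their neighbours. At 24 months they were compared with the 132 macrophages that had no UMI of either chemokine, here called other macrophages, by UMIs summed over 205592 and 379312. Csf1r, the receptor for colony-stimulating factor, was at 904.7 CPM in members and 719.7 CPM in other macrophages, Ms4a7 at 982.5 and 922.7 CPM, Aif1 at 530.2 and 469.3 CPM and Adgre1, which encodes F4/80, at 209.2 and 232.0 CPM. A gene is called higher where the ratio of CPM values reached 1.5 with an interval above 1, and lower where it did so in the other direction; these calls describe size and are not a test. They were made for the 1309 genes with at least 50 UMIs over both groups. Of these, 120 (9.17%) were higher and 61 (4.66%) lower in members, together 13.8%, and the median log2 ratio over all of them was 0.06. Of the core macrophage list, 14 of 15 genes reached the count minimum, 1 was higher, none was lower and the median log2 ratio was 0.14. That gene was Cx3cr1, the fractalkine receptor, at 413.4 and 242.5 CPM, 1.70-fold (1.25 to 2.31). The core list summed to 23386 and 20519 CPM, a ratio of 1.14 (1.10 to 1.18). The macrophage marker list without the C1q genes had a ratio of 1.16 (1.05 to 1.27). Lysosomal protease and hydrolase genes had no call among 20 tested, with a median log2 ratio of 0.09.

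Genes of resident border-associated and stromal macrophages were higher in members as a group. Of the 24 genes on this list, 11 could be tested, 9 were higher and 1 was lower, and the median log2 ratio was 1.15 against 0.06 for all tested genes. After thinning 4 of 6 tested genes were higher, and with Ttr under 2% 3 of 6. Pf4, the chemokine platelet factor 4, which lies at chr5:90772435-90773383, was at 1124 CPM in members and 369.1 CPM in other macrophages, 3.04-fold (2.46 to 3.78), and had a UMI in 77.3% and 30.3% of cells. The mannose receptor Mrc1, which encodes CD206, was at 646.9 and 313.7 CPM, 2.06-fold (1.60 to 2.66), in 68.2% and 40.9% of cells. The haemoglobin scavenger receptor Cd163 was at 223.7 and 73.8 CPM, 3.03-fold (1.85 to 5.04). Transglutaminase F13a1, carbonyl reductase Cbr2 and the lectin Mgl2 were 3.19-fold (1.93 to 5.39), 3.69-fold (2.08 to 6.78) and 3.06-fold (2.05 to 4.62) higher. Stab1, Dab2 and the transcription factor Maf were 2.14, 1.66 and 2.33-fold higher, and Wfdc17 was lower, at 0.573 (0.409 to 0.791).

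Other markers that often go with this group were close to absent. Lyve1, a hyaluronan receptor, had 1 UMI in members and 1 in other macrophages, Folr2 had 3 and 1, and Timd4 had 0 and 2. The members thus carried Mrc1, Cd163, Cbr2, F13a1 and Pf4 at higher level but could not be assigned to a Lyve1 or Folr2 class at this depth. Genes of monocyte-derived cells were at low level in both groups and lower in members as a sum. None of the 15 genes on that list reached the count minimum, 13 had no UMI in members, and their summed level was 29.2 CPM in members and 169 CPM in other macrophages, a ratio of 0.173 (0.0612 to 0.398). Ccr2, the receptor by which monocytes leave the blood and marrow, had 0 UMIs in members and 19 in other macrophages, a ratio of 0 (0 to 0.395). With a floor of 3 UMIs over the group it would be 3.43-fold lower, which is no lower limit on the difference. Microglial markers were sparse in both: P2ry12 had 6 and 5 UMIs, Tmem119 had 8 and 14 and Sall1 none. Fcrls, which microglia and some border macrophages share, was 2.16-fold (1.57 to 2.97) higher in members and was the one call among 5 tested genes of the epiplexus and microglia-like list, whose median log2 ratio was 0.03.

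**Figure D3:**
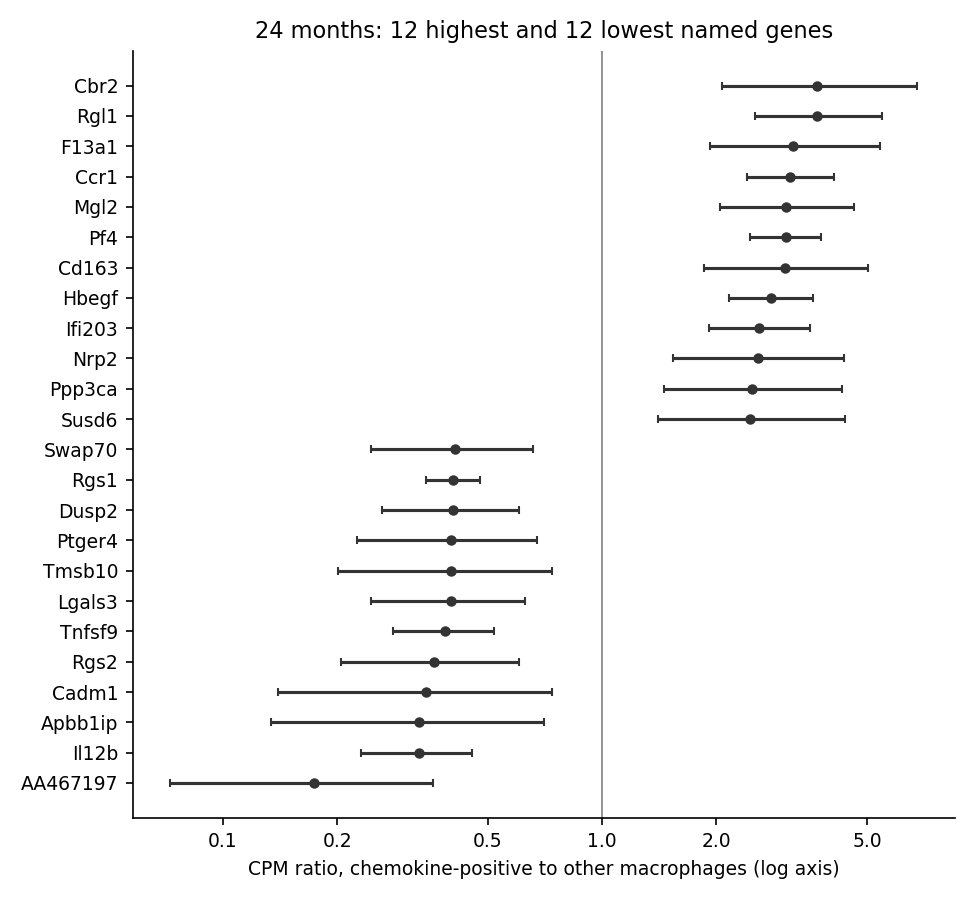
CPM ratio of chemokine-positive to other macrophages at 24 months on a log axis for the 12 highest and 12 lowest genes chosen by the naming rule, with exact 95% intervals for counting error and a line at 1. Ratios run from 3.69 for Rgl1 and Cbr2 down to 0.174 for AA467197.

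Vcam1, an adhesion molecule that binds integrin VLA-4 on leukocytes and lies at chr3:116109949-116129688 on the minus strand, was higher in members at 24 months and higher at 24 than at 3 months. It was at 366 CPM in other macrophages and 537.8 CPM in members (14 UMIs, 57.1% of them in 1 cell) at 3 months, and at 706.5 and 1518 CPM at 24 months. The ratio of members to other macrophages at 24 months was 2.15 (1.82 to 2.54), and 84.8% and 49.2% of cells had a UMI, or 86.3% and 44.0% after thinning. At 3 months that ratio was 1.47 (0.793 to 2.52), an interval that holds 1. Between the ages Vcam1 was 2.82-fold (1.66 to 5.22) higher in members and 1.93-fold (1.62 to 2.31) higher in other macrophages, so its difference between the libraries was also seen outside the members. Mesenchymal barcodes also hold Vcam1, at 1663 and 1019 CPM. Their 10 markers summed to 87.6 CPM in members and 295 CPM in other macrophages at 24 months, and no member held 3 or more UMIs of them. Of 18 adhesion molecules and integrins 6 could be tested, Vcam1 was the one higher, the integrin subunit Itgb5 was the one lower, at 0.635 (0.408 to 0.965), and the median log2 ratio was -0.21.

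Several receptors for chemokines and for complement were higher in members. Of 15 chemokine receptor genes 5 could be tested, 3 were higher and 1 was lower. Ccr1, a receptor for CCL3 and CCL5, was at 783.1 CPM in members and 250.5 CPM in other macrophages, 3.13-fold (2.41 to 4.07). The atypical receptor Ccrl2 was lower, at 695.6 and 1316 CPM, a ratio of 0.529 (0.436 to 0.638). Of complement genes and their receptors, 5 of 16 could be tested and 3 were higher, among them C3 at 2.41-fold (1.35 to 4.34) and the anaphylatoxin receptor C5ar1 at 1.59-fold (1.26 to 2.01). C3 rested on 30 and 23 UMIs. After thinning 1 of 2 tested complement genes was higher, and with at least 5 chemokine UMIs 1 of 4.

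Scavenging and iron genes were higher in part. Of 20 scavenging and endocytosis genes, 10 could be tested, 6 were higher and 1 was lower, with a median log2 ratio of 0.73. Of these 6, Cd163, Dab2, Mrc1 and Stab1 are also on the resident list. The others were the scavenger receptor Msr1, 2.05-fold (1.18 to 3.58), and the inhibitory Fc receptor Fcgr2b, 1.69-fold (1.19 to 2.40). Axl, a receptor tyrosine kinase for the uptake of dying cells, was lower, at 0.534 (0.316 to 0.868). After thinning, 2 of 6 genes of this list were higher, with Ttr under 2% 1 of 6, and with both chemokines summing to at least 5 UMIs, 2 of 8. Of 14 iron and heme genes, 8 could be tested and 3 were higher: heme oxygenase Hmox1, 1.84-fold (1.25 to 2.72), biliverdin reductase Blvrb, 1.77-fold (1.16 to 2.70), and the metal transporter Slc11a1, 1.75-fold (1.10 to 2.79), which was at 0.947 after thinning, when 1 of 6 tested genes was higher. Abca1, which exports cholesterol, was the one call among 7 tested genes of cholesterol efflux and lipid handling, 2.21-fold (1.59 to 3.07).

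Antigen presentation did not separate members from other macrophages. All 9 tested genes of the MHC class II list stayed inside the size limit, with a median log2 ratio of -0.09. H2-Aa was at 10657 CPM in members and 9989 CPM in other macrophages, a ratio of 1.07 (1.01 to 1.12), and the invariant chain Cd74 was at 0.889 (0.859 to 0.921). Apoe, a lipid carrier abundant in macrophages, was at 0.958 (0.931 to 0.986). Lipid-associated macrophage genes had no higher call among 10 tested and 2 lower ones. Those were Axl and Lgals3, which encodes galectin-3, at 116.7 and 292.6 CPM, a ratio of 0.399 (0.245 to 0.624). Spp1, osteopontin, had 1 UMI in members and 15 in other macrophages, a ratio of 0.123 (0.00292 to 0.799).

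Cytokine transcripts were lower in members for several inflammatory genes and higher for Il10. Il12b, a subunit of interleukins 12 and 23, was at 209 CPM in members and 638 CPM in other macrophages, a ratio of 0.328 (0.231 to 0.455), and had a UMI in 3 of 66 members against 28 of 132 other macrophages. Tnfsf9, the ligand of 4-1BB, was at 262.7 and 682.8 CPM, a ratio of 0.385 (0.281 to 0.517), Tnf was at 0.575 (0.516 to 0.640) and Il1a at 0.603 (0.475 to 0.759). Il1b was at 6099 and 8415 CPM, a ratio of 0.725 (0.678 to 0.774), inside the size limit. Of 13 tested genes of the inflammatory and NF-kappaB list, Tnf and Il1a were lower, Relb was higher, 1.98-fold (1.13 to 3.48), and the median log2 ratio was -0.14. Il10, an anti-inflammatory cytokine, was at 690.7 and 340.1 CPM, 2.03-fold (1.59 to 2.60), in 47.0% and 26.5% of cells. Of the list of lymphoid support cytokines, to which Il10 belongs, 3 of 13 could be tested and Il10 was the one call. With Ttr under 2% none of the 3 was called. Tnfsf13b, the B cell survival factor BAFF, had 6 and 24 UMIs, a ratio of 0.461 (0.154 to 1.16).

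Other chemokines did not move with Cxcl13 and Ccl8 as a group. Of 15 tested, 2 were higher, Pf4 and Cxcl9, and the median log2 ratio was 0.18. Cxcl9 was at 452.4 and 110.7 CPM, but 1 member held 48.4% of its UMIs, 1 other macrophage held 57.1%, and the ratio of 4.09 (2.81 to 6.03) became 0.631 after thinning. Thinning left out shallow cells and chose members again, so cells could drop out or change group. The neighbours of Ccl8 on chromosome 11 stayed inside the size limit. Ccl2 (chr11:82035571-82037453) was at 1.11 (1.01 to 1.23), Ccl7 (chr11:82045712-82047525) at 1.35 (1.24 to 1.47) and Ccl12 (chr11:82101845-82103400) at 1.13 (0.918 to 1.40). After thinning Ccl7 was at 1.56.

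Among the remaining genes of the ranking, Rgl1, a guanine nucleotide exchange factor for Ral, was at 418.3 and 113.4 CPM, 3.69-fold (2.53 to 5.45), and had a UMI in 60.6% and 18.2% of cells. The growth factor Hbegf was at 778.2 and 279.5 CPM, 2.78-fold (2.17 to 3.59). Ifi203, the semaphorin and VEGF co-receptor Nrp2, the calcineurin subunit Ppp3ca and Susd6 were 2.60, 2.57, 2.48 and 2.46-fold higher. Rgs1, a brake on chemokine receptor signalling, was at 870.7 and 2149 CPM, a ratio of 0.405 (0.343 to 0.477), and Rgs2, of the same family, was at 0.361 (0.205 to 0.603). The prostaglandin receptor Ptger4, the phosphatase Dusp2 and the actin-binding Tmsb10 were at 0.400, 0.404 and 0.400. AA467197, Apbb1ip, Cadm1 and Swap70 were at 0.174, 0.328, 0.343 and 0.410, and AA467197 was found in 2 of 66 members.

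Immediate early and heat shock genes, which dissociation can raise, were balanced between the groups. Of 20 tested, Egr1 (1.63-fold, 1.36 to 1.96) and Ier3 (1.51-fold, 1.33 to 1.72) were higher, 2 were lower, and the median log2 ratio was 0.06. With Ttr under 2% none of 18 was higher and 3 were lower. Type I interferon genes had 1 higher and 1 lower call among 9 tested, with a median log2 ratio of -0.05. None of the 15 cell cycle genes reached the count minimum, and their sum was 141 and 158 CPM.

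Depth and markers of other cells were read beside these differences. Members at 24 months had a median of 3072.5 UMIs, 1127.5 genes and 37 C1q UMIs, against 2842.5, 1007.5 and 28 in other macrophages, so they were slightly deeper. Mitochondrial UMIs had medians of 4.23% and 3.86%. Endothelial markers summed to 19.5 CPM in members, with 8 of 10 genes at 0, and to 319 CPM in other macrophages. The T or NK cell list had 2 UMIs in members, with 9 of 10 genes at 0. B or plasma cell markers summed to 151 and 81.7 CPM, with 6 of 10 genes at 0 in members, and 2 members held 3 or more of these UMIs. Dendritic cell markers were at 618 and 691 CPM, with 5 of 10 genes at 0 in members. Epithelial markers were at 23483 and 22855 CPM, and the mural, neutrophil, mast cell and erythroid lists summed to 9.73, 48.6, 0 and 34.0 CPM in members. The part of these markers in the differences was read only by leaving cells out, and not for every list. One alternative left out every barcode with 3 or more UMIs of mesenchymal, endothelial, mural, T or NK cell and B or plasma cell markers together. Then 118 genes were higher and 60 lower, and 7 of 9 tested genes of the resident list were higher. The number of genes tested under that filter is not given here, so these counts have no share over all genes beside them. Epithelial, dendritic cell, neutrophil, mast cell and erythroid markers were not part of that filter.

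**Figure D4:**
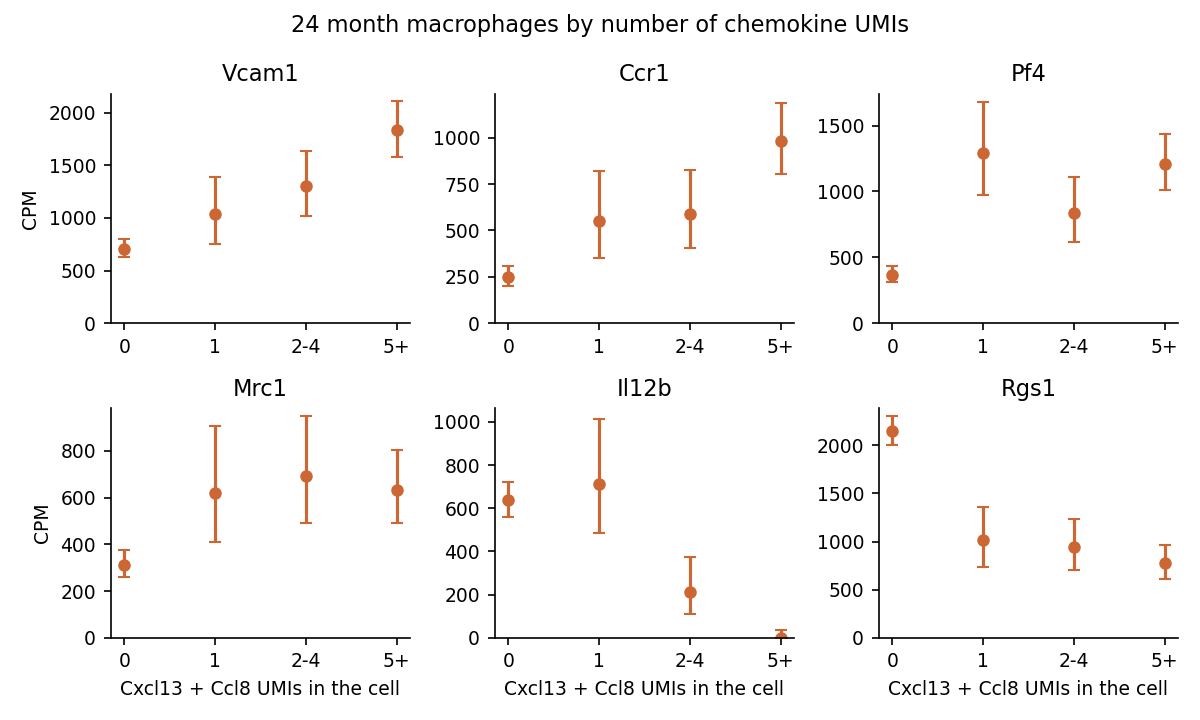
Level of 6 genes in CPM in 24 month macrophages with 0, 1, 2 to 4 and at least 5 Cxcl13 and Ccl8 UMIs (132, 14, 19 and 33 cells), with exact 95% Poisson intervals for counting error. Vcam1 runs from 707 to 1831 CPM, while Rgs1 is at 2149 CPM with no UMI and at 1013 CPM or less in the 3 groups with a UMI.

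For some of the genes shown, members with 1 UMI already differed from other macrophages, and some genes differed further with the amount. Vcam1 was at 707, 1036, 1299 and 1831 CPM in cells with 0, 1, 2 to 4 and at least 5 UMIs of both chemokines, and the interval of the last group (1582 to 2107) lay above that of the first (624 to 796). Ccr1 was at 250.5, 553, 587 and 981 CPM, with 45.8% of the UMIs of the second group in 1 of its 14 cells. Pf4 was at 369.1, 1290, 836 and 1208 CPM and Mrc1 at 313.7, 622, 694 and 632 CPM, so their levels were raised in each group with a UMI and showed no order among the 3. Il12b was at 638, 714, 214 and 0 CPM, and none of the 33 cells with at least 5 UMIs held it. All 43 Il12b UMIs of the members lay in 3 cells, with 39.5% in 1 of them, so no order with the amount can be read. The plot of levels by amount shows the same values, and the groups with 1 and with 2 to 4 UMIs hold under 20 cells each.

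Cells with Ccl8 alone held less Il1b than cells with Cxcl13 alone. Over 18 and 29 cells, 389 genes were tested, of which 16 (4.11%) were higher and 16 (4.11%) lower in cells with Ccl8 alone, together 8.23%. The genes named here were chosen after their values had been seen. Il1b was at 3126 CPM with Ccl8 alone and 8684 CPM with Cxcl13 alone, a ratio of 0.360 (0.302 to 0.426), against 4669 CPM in cells with both and 8415 CPM in other macrophages. Il1a was lower too, at 0.465 (0.232 to 0.869). Cdkn1a, a cell cycle inhibitor, was at 0.557 (0.386 to 0.790), Tmem176b at 0.440 (0.282 to 0.665), and the stress factor Atf3 was 2.20-fold (1.60 to 3.03) higher. Cxcl9 was 14.9-fold higher (7.45 to 33.9), with 60% of its UMIs in 1 of the 18 cells.

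Resident markers were split over these 3 kinds of member. F13a1 was at 75.0 CPM (30.2 to 155) with Cxcl13 alone, 249 CPM (133 to 426) with Ccl8 alone and 415 CPM (269 to 613) with both, and at 68.5 CPM (44.8 to 100.4) in other macrophages. Cd163 was at 107 CPM (51.4 to 197), 307 CPM (175 to 498) and 332 CPM (203 to 513), and at 73.8 CPM (49.1 to 107) in other macrophages. For both genes the cells with Cxcl13 alone lay near the other macrophages, within counting error. Mrc1 was at 568, 652 and 764 CPM, Pf4 at 954, 1055 and 1446 CPM and Rgl1 at 375, 441 and 465 CPM, each above other macrophages in every kind. Vcam1 was at 1340, 1304 and 1977 CPM. These genes too were picked after their values had been seen.

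**Figure D5:**
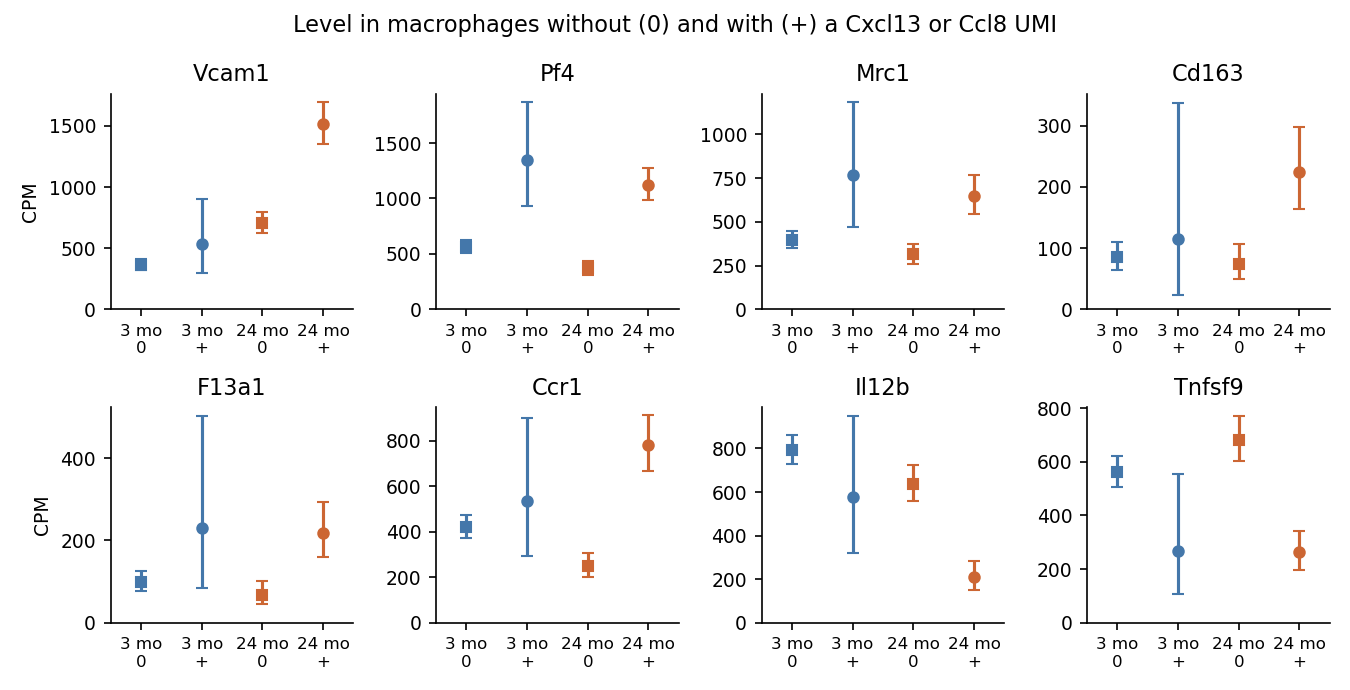
Level of 8 genes in CPM in macrophages without (0, squares) and with (+, circles) a Cxcl13 or Ccl8 UMI at 3 months (blue; 209 and 6 cells) and 24 months (orange; 132 and 66 cells), with exact 95% Poisson intervals for counting error. Pf4 and Mrc1 are higher in positive cells at both ages, and intervals of the 6 positive cells at 3 months are wide.

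The 6 members at 3 months, with 26031 UMIs in all, gave a coarse view of the same contrast in the young library. Each held 3296 to 6881 UMIs, above the median of 3102 for macrophages of that library. Only 1 of the 6 held more than 1 Ccl8 UMI, and 3 of 6 kept a Ccl8 UMI after thinning. The part of depth in this contrast was not tested. Pf4 was at 1345 CPM in them and 566.2 CPM in the 209 other macrophages, 2.37-fold (1.63 to 3.36). Mrc1 was 1.94-fold (1.17 to 3.06), Hbegf 2.17-fold (1.34 to 3.36) and Fcrls 3.57-fold (2.25 to 5.44) higher, and Rgs1 was lower, at 0.584 (0.372 to 0.873). For these 5 genes, picked after their values had been seen, the young members lay on the same side of their neighbours as the aged ones. Other genes did not: Tmsb10 and Lgals3 were higher in the young members, at 3.69 (2.16 to 6.00) and 2.33 (1.25 to 4.04), and Il10 and Mgl2 had no UMI in them. The cells were few, and 1 cell held 37.1% of the Pf4 UMIs and 40.0% of the Mrc1 UMIs.

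Members of the 2 ages were compared over 588 genes with at least 50 UMIs in both together, of which 45 (7.65%) were higher and 47 (7.99%) lower at 24 months. Together these were 15.6%. The 24 month members hold far more UMIs in all, so genes reached the count minimum mostly through them. Il10, Socs3, Mgl2 and Pik3r1 entered through the 24 month group alone. Ccr2, with 0 UMIs at 24 months and 6 at 3 months, could not enter. The counts of higher and lower genes therefore do not weigh the 2 ages equally. Among other macrophages 2.64% of 2276 genes were higher and 5.93% lower, together 8.57%. The calls between ages of members depended on the cells and depth used: after thinning 24 genes were higher, 14 of them among the 45, and 10 lower, 7 of them among the 47. The 5 genes named as lower, Slc25a5, Arpc2, Sdcbp, Chd4 and H2afz, had ratios between 0.477 and 0.620. The naming limit on the share of UMIs in 1 cell was harder to meet among 6 cells, which cut the lower names. Il10 had 142 UMIs at 24 months and 0 at 3 months, Socs3 82 and 0, Mgl2 68 and 0, and the kinase subunit Pik3r1 63 and 0. With a floor of 3 UMIs over the 6 cells the ratios would be 5.99, 3.46, 2.87 and 2.66. These are no lower limits on the difference, because the floor counts UMIs and the 3 month group is 6 cells. Among the other macrophages at 3 months, Il10 had a UMI in 28.7% of cells and Mgl2 in 23.0%, so 6 cells can lack either gene. The neutrophil chemokine Cxcl1 had 557 and 3 UMIs, a ratio of 23.5 (8.00 to 114). Pla2g7, H2-Q7 and Lcp2 had 1 UMI each at 3 months and ratios of 12.2 (2.13 to 485), 7.22 (1.24 to 290) and 6.71 (1.15 to 270).

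The MHC class II genes H2-Aa and H2-Eb1 were 1.86-fold (1.58 to 2.21) and 1.86-fold (1.55 to 2.24) higher in members at 24 months, and none of 7 tested genes of that list was lower. At 3 months 1 of the 6 members held 45.0% of the H2-Aa UMIs and 61.6% of the H2-Eb1 UMIs. In other macrophages the same genes were at 1.28 (1.23 to 1.34) and 1.43 (1.36 to 1.49), inside the size limit, and the difference between these differences was not tested. Of the resident list, 7 genes could be tested, Mgl2 was higher, none was lower and the median log2 ratio was -0.17. Pf4 was at 0.836 (0.584 to 1.23), Mrc1 at 0.842 (0.524 to 1.42) and F13a1 at 0.95 (0.404 to 2.72). In other macrophages Pf4, Mgl2 and Maf were lower at 24 months, at 0.652 (0.533 to 0.793), 0.573 (0.393 to 0.820) and 0.329 (0.201 to 0.516). Ccr2 had 6 UMIs in members at 3 months, all in 1 cell, and 0 at 24 months.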

How the data were processed

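Choroid plexus of 2 ages was measured by single-cell RNA sequencing, with 1 pooled library of 4 mice per age. The values are UMI counts per gene and barcode, deposited by the authors as whole numbers without normalization. Cell Ranger 4.0.0 and mm10 are named in the submitters' processing notes; no source used here names the annotation. Of 20375 symbols in the deposited files, 98.7% were found in GENCODE vM21, whose coordinates are printed. Promoters are RefSeq sequences on GRCm38.p6.

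Barcodes were filtered and members chosen as the report states, in python 3.11.15 with numpy 2.4.6, scipy 1.17.1, pandas 2.3.3 and matplotlib 3.10.9. No doublet caller was run. An alternative leaves out barcodes with 3 or more UMIs of mesenchymal, endothelial, mural, T or NK cell and B or plasma cell markers together. Other classes, apart from the epithelial one, needed 3 or more marker UMIs and no C1q UMI. UMIs were summed per group and given as CPM with exact Poisson intervals, CPM ratios with exact conditional binomial intervals and shares with exact Clopper-Pearson intervals, all at 95%. A count of 0 was given a floor of 3 UMIs over the group. For list medians, 5 CPM was added to both values before the log2 ratio, so low genes come out closer to 0. Thinning drew 2300 UMIs from each cell without replacement, and cells with fewer were left out. For ratios, calls and the share of members after thinning, members were chosen again from the thinned counts. A member that lost its chemokine UMIs then counted among the other macrophages. For the thinned shares of cells with a UMI of a gene, the members of full depth were kept. The comparison was also run on simulated counts with known changes. These were drawn without variation between cells, as the intervals assume, so that run cannot speak for transcripts held by few cells. Members at 24 months hold 205592 UMIs and those at 3 months 26031, which limits the precision of anything said of the latter.

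The genes named are the 12 highest and 12 lowest ratios of members to other macrophages, and the 8 highest and 8 lowest between ages, where 5 qualified as lower. They had to be called, reach 100 CPM in 1 group, keep their direction after thinning, have no cell with over 25% of the UMIs of the higher group and reach 10% of the level in epithelial barcodes. Predicted, mitochondrial, haemoglobin, immunoglobulin and ribosomal protein genes and Xist were not ranked. A fixed set of macrophage genes and the members of 19 gene lists with the largest and smallest ratios were added, and others are said to be chosen after their values were seen. The members, lists and rules were chosen with earlier results of these data known. Some genes that the lists hold are not reported here.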

Additional observations from a re-analysis of the deposited data

Results flagged for a closer look

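For 7 genes the members lay above the other macrophages in one library and below them in the other, by the same size rule, and whether the contrast differs between the ages was not tested. At 3 months each rests on 6 member cells. The numbers of genes tested and called in the 3 month contrast are not given here. The 7 genes therefore cannot be set against a share of all genes, or against the genes that kept their side. Il10 had a ratio of members to other macrophages of 2.03 at 24 months and no UMI in the 3 month members, against 320 in the 3 month others. Mgl2 had a ratio of 3.06 at 24 months and 0 UMIs in members against 127 in others at 3 months. Acin1 had a ratio of 1.67 at 24 months and 0 against 100 UMIs at 3 months. Cx3cr1 had a ratio of 1.70 at 24 months and 0.258 (0.0311 to 0.946) at 3 months. Rcan1 had a ratio of 1.65 at 24 months and 0.302 (0.121 to 0.625) at 3 months. Tmsb10 had a ratio of 0.400 at 24 months and 3.69 (2.16 to 6.00) at 3 months, where 3 cells held its 19 UMIs. Lgals3 had a ratio of 0.399 at 24 months and 2.33 (1.25 to 4.04) at 3 months, where 1 cell held all 14 UMIs.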

How the results depend on the processing

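The share of members was 2.79% at 3 months and 33.3% at 24 months, and under the alternatives it stayed lower at 3 months. With at least 2 UMIs it was 0.465% and 26.3%. With at least 5 UMIs, an alternative chosen after seeing the data, it was 0% and 16.7%. With Ttr under 2% of UMIs it was 8.00% and 29.9%, over 75 and 127 macrophages. The number of genes higher in members at 24 months, 120, was 73 after thinning, 67 with Ttr under 2% and 191 with at least 20 UMIs per gene, of which 49, 47 and 120 were among the 120. The number of lower genes, 61, was 102 with at least 20 UMIs per gene. Between the ages, 45 higher genes became 24 (14 shared) and 47 lower ones became 10 (7 shared) after thinning, and the lower ones became 72 with at least 20 UMIs per gene. With at least 2 UMIs, which leaves 1 member at 3 months, 54 were higher (15 shared) and 57 lower (20 shared), so most of these calls were other genes. Thinning and the limit on Ttr also leave fewer UMIs and fewer genes tested. The numbers of genes tested under the alternatives are not given here, so their counts of calls, also within lists, cannot be set against a share of all genes. The resident list had 4 of 6 tested genes higher after thinning and 3 of 6 with Ttr under 2%. Of 455 alternative ratios of 40 named genes, 428 lay inside the interval of the reported ratio, and 27 lay outside it. No called ratio among these 40 changed direction, but the ranked genes had to keep theirs after thinning to be named. Outside the 40, Cxcl9 went from 4.09 to 0.631 and Slc11a1 from 1.75 to 0.947 after thinning. Members were chosen again after thinning, so these changes are not changes of depth alone. Apoe, not called at 0.958, ran from 0.903 to 1.07. Il12b, at 0.328, ranged from 0 to 0.467 and Lgals3, at 0.399, from 0.111 to 0.608. Choosing members by Cxcl13 alone, or by at least 5 UMIs, was not run between the ages because no such cell exists at 3 months. No paired analysis was possible because each age is 1 library. Depth limits every call to genes with 50 UMIs over the groups compared, and the 6 members at 3 months hold 26031 UMIs in all.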
